A study of Homo sapiens with 4 samples.

Results

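The comparison set the library of cells carrying the second short hairpin RNA against ATF7IP (hairpin 2) beside the library of cells carrying the first (hairpin 1). Its members were the 13139 of 28278 genes in the table whose mean over these libraries was at least 1 CPM (counts scaled to a common library total). Each side was 1 library, so no difference below has a replicate check, and no p-value is given. The series holds 2 further libraries, from cells with a Control hairpin and from cells with a hairpin against SETDB1, and their levels are set beside those of the 2 ATF7IP libraries. Per the labels, all 4 came from HepG2, a human hepatocellular carcinoma cell line, infected with lentivirus expressing the hairpin, and all cells, Control included, then received the multikinase inhibitor sorafenib at 10 µM for 48 h. Polyadenylated RNA was sequenced. There was no untreated library, and the hairpin sequences are not given here.

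ATF7IP is a partner of SETDB1, a methyltransferase that writes trimethylated lysine 9 on histone H3 and represses retroelements and zinc finger gene clusters. In many cell types loss of this silencing has been linked to transcription of retroelements, whose double-stranded RNA can start an interferon response. Hairpins act through the microRNA pathway, and hairpins of different sequence share the intended target but can differ in the other transcripts they match.

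ATF7IP itself, on chromosome 12 from 14365682 to 14502930 (hg38), was at 59.1 CPM in Control, 18.3 CPM with hairpin 1, 18.8 CPM with hairpin 2 and 97.8 CPM in SETDB1 knockdown. Both ATF7IP hairpins were low and about equal, with a ratio of hairpin 2 to hairpin 1 whose 95% exact interval ran from 0.884 to 1.201; the log2 difference was 0.04, and -0.26 after the centring on transcript GC content and length described below. SETDB1, on chromosome 1, was at 47.7, 52.1, 46.7 and 11.99 CPM in Control, hairpin 1, hairpin 2 and SETDB1 knockdown, low only where it was targeted. All sets of 4 values below keep this order of libraries. CYB5R2, a cytochrome b5 reductase, was at 0.072, 0.510, 1.12 and 0.604 CPM, and the 2 ATF7IP hairpins differed within the interval of their ratio, 0.99 to 5.54. With a mean of 0.84 CPM over the 2 hairpins it was not a member. Its Control value was 5 counts, under the floor of 12 counts used here, so its ratio to Control is not given. PARK7, a redox-protective protein, was at 246, 333, 282 and 255 CPM, highest with hairpin 1. Intervals here and below cover counting error only, and they rest on an assumed 4 counts per sequenced fragment.

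The hepatocyte part of the label was not borne out by the markers. ALB, APOB, TTR, AFP, SERPINA1 and FGB, which encode major secreted liver proteins, were at 0 counts in both ATF7IP libraries, and the 8 hepatocyte markers summed to 0.170 CPM with hairpin 1 and 0.417 CPM with hairpin 2. Of 48 genes listed for hepatocyte secreted proteins, 3 were members (F12, TFR2 and APOM). KRT7, a keratin of simple epithelia, was at 1871 and 1007 CPM in hairpins 1 and 2, while KRT19 was at 0 in both. The cells are therefore described below by their library names only. Markers of other cell types were near the floor for endothelium (sums of 0.298 and 0.378 CPM in hairpins 1 and 2). The 4 immune markers summed to 25.1 and 27.7 CPM, nearly all of it CD68, with PTPRC at 0 and 0.052 CPM and CD3E at 0 in both. The 8 stellate and fibroblast markers, COL3A1 and LUM among them, summed to 265 and 228 CPM against 487 CPM in Control. Library totals were 71225287 and 73791097 counts for hairpins 1 and 2, genes above 0 numbered 18256 and 18479, and ribosomal RNA genes took 0.489% and 0.408% of counts.

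Most members lay close to equality. Of the 13139 members, 6332 were higher and 6807 lower with hairpin 2, the median log2 difference was -0.01, and the middle 90% of members lay between -0.65 and 0.63 on the log2 scale. At least 2-fold higher with hairpin 2 were 169 members, which is 1.29% of those compared, and at least 2-fold lower were 158, or 1.2%. Either direction together made 2.49%. With library totals in place of the TMM scaling these numbers became 214 and 126, so that the higher share of all 2-fold differences went from 51.7% to 62.9%. For 50 of the 169 and 68 of the 158 the whole counting interval lay beyond 2-fold. Read-through loci and structural RNA genes made up 20 of the 169 and 19 of the 158. Among all 13139 members 99 were read-through and 81 structural, so their share was larger in both 2-fold sets than over all members. The Control level was nearer to hairpin 2 for 90 of the 169 higher members and for 64 of the 158 lower ones. It lay outside the range of the 2 hairpins for 70 of the 169 and 80 of the 158. These positions were not counted over all members.

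**Figure D1:**
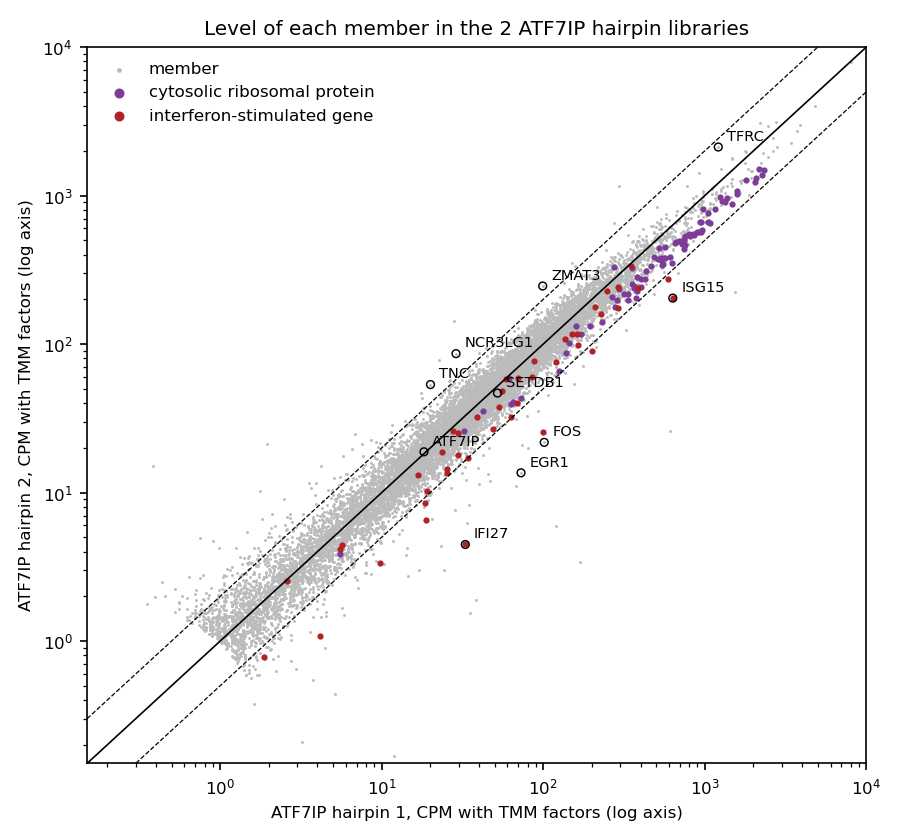
CPM with TMM factors in the hairpin 1 library (x axis, log scale) against the hairpin 2 library (y axis, log scale), 1 point a member, for all members but the 18 at or under the floor of 12 counts in either library. The solid line marks equality and the dashed lines 2-fold; ATF7IP lies on the line, and all 44 listed interferon-stimulated genes and 83 of 84 cytosolic ribosomal protein genes lie below it.

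Differences followed the base composition and length of the transcripts. A GENCODE transcript was matched for 12645 members. The longest under each gene name was taken, which need not be the one these cells express. Members were put in 5 groups of about equal size by transcript GC content and by length. In the group of lowest GC content (30.2% to 40.9%) the median log2 difference was 0.20, with 50 members at least 2-fold higher and 5 at least 2-fold lower with hairpin 2. In the group of highest GC content (58.1% to 74.7%) it was -0.25, with 13 higher and 56 lower. By length the group of shortest transcripts had a median of -0.23 and that of the longest 0.20. Across these genes, which share the 2 libraries and are not replicates, Spearman's rho with the log2 difference was -0.446 for GC content and 0.400 for length, and -0.011 for the mean level. Set against Control, which both share, hairpin 1 ran from -0.17 to 0.19 over the GC groups and hairpin 2 from 0.03 to -0.05, so the gradient against Control was that of the hairpin 1 library. Medians of the gene lists below are therefore also given after centring on GC content and length, an alternative added after the data were seen. Among the 12645 members with a transcript 148 were at least 2-fold higher and 131 at least 2-fold lower before centring, and 138 and 85 after it, of which 113 and 75 were the same genes. The part of this gradient in each single gene's difference was not tested.

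**Figure D2:**
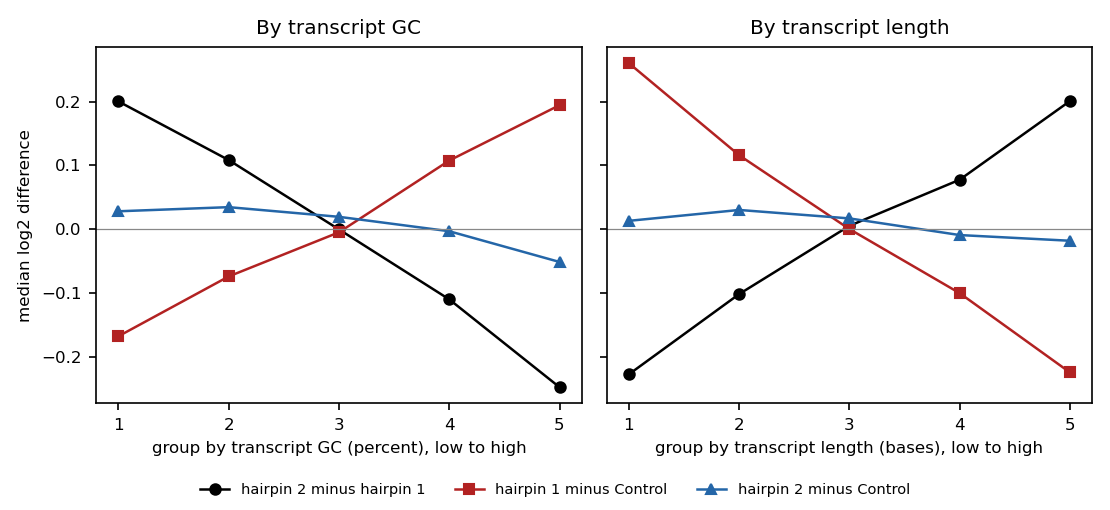
Median log2 difference (y axis) in 5 groups of members by transcript GC content (left, percent) and transcript length (right, bases), from low to high on the x axis. The line for hairpin 2 minus hairpin 1 falls from 0.20 to -0.25 with GC content and climbs from -0.23 to 0.20 with length, hairpin 1 minus Control runs the opposite way, and hairpin 2 minus Control stays between -0.05 and 0.03.

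Chromosome medians moved with the same gradient. They ran from -0.18 on chromosome 19, whose members have a median GC content of 59.2%, to 0.09 on chromosome 4, at 42.2%. After centring chromosome 19 was at -0.0008 and chromosome 4 at 0.0090.

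The listed interferon-stimulated genes were all lower with hairpin 2. The list was drawn up with earlier results known and does not hold CXCL10, given below, which was higher with hairpin 2. These genes are transcribed after interferon or viral nucleic acid activates STAT2, IRF9 and other factors, and many encode proteins that block viral entry, translation or replication. All 44 of the 44 members listed were lower with hairpin 2, 11 of them at least 2-fold, with a median of -0.59 against -0.01 over all members. The median after centring was -0.54, again with 44 of 44 below 0. For 41 of the 44 the hairpin 1 library was the highest of all 4, and the sum of the list was 3103 CPM in Control, 5222 CPM with hairpin 1, 3327 CPM with hairpin 2 and 2800 CPM in SETDB1 knockdown. The 3 exceptions were STAT2 and IRF1, highest in Control, and SAMD9, highest in SETDB1 knockdown.

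Interferon factors bind the interferon-stimulated response element, whose core was searched here as GAAANNGAA on both strands, counting overlapping matches. In RefSeq promoter windows of 300 bases (250 before the start and 50 after it, GRCh38.p14) at least 1 match was found for 22 of the 35 listed members with a window (62.9%), against 665 of 10430 members (6.38%). It was also found in 11 of 111 members at least 2-fold lower with hairpin 2 (9.91%) and in 9 of 111 at least 2-fold higher (8.11%). A match is a description of the letters only. Among the listed members the median difference was -0.51 for those with a match and -0.67 for those without. Windows of 5 members with large differences are shown because their promoters carry the motif; each runs 5′ to 3′ on the gene's strand over the 170 bases up to the base before the start, with matches on either strand in capitals. They lie at chr14:94110566-94110735 (IFI27, plus strand), chr1:27672193-27672362 (IFI6, minus strand), chr1:1013327-1013496 (ISG15, plus strand), chr11:313870-314039 (IFITM1, plus strand) and chr1:78620278-78620447 (IFI44L, plus strand).
IFI27: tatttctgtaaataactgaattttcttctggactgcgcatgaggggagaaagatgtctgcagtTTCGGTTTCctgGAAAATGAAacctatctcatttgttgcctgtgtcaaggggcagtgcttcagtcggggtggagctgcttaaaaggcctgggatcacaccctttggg
IFI6: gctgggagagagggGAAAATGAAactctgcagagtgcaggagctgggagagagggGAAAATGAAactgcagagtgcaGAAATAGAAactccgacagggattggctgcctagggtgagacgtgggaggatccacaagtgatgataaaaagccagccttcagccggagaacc
ISG15: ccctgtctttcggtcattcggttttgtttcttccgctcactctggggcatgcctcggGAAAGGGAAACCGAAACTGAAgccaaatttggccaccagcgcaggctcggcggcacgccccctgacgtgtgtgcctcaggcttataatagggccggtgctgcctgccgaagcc
IFITM1: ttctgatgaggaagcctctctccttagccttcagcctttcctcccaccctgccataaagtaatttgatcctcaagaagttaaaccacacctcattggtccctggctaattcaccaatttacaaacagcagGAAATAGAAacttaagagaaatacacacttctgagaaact
IFI44L: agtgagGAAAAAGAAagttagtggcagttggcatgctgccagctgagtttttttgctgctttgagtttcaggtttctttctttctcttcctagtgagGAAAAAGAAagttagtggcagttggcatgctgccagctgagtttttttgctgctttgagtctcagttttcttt
The ISG15 window holds 3 matches that overlap each other, the IFI6 window 3 separate matches, and the IFI27 and IFI44L windows 2 each, while 1 match lies in the part of the IFITM1 window shown.

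IFI27, a mitochondrial protein and a standard readout of type I interferon, was at 3.15, 32.9, 4.47 and 1.01 CPM in Control, hairpin 1, hairpin 2 and SETDB1 knockdown. Only the hairpin 1 library was high, 7.36-fold above hairpin 2 (interval 5.84 to 9.31). IFI6, which protects membranes used for viral replication, was at 24.1, 100.2, 25.5 and 8.39 CPM, again with hairpin 2 near Control, and hairpin 1 was 3.94-fold above hairpin 2 (3.56 to 4.36). XAF1, a pro-apoptotic interferon target, was at 1.18, 4.17, 1.08 and 0.126 CPM. ISG15, a ubiquitin-like modifier, was at 176, 633, 204 and 151 CPM and 3.11-fold higher in hairpin 1 than in hairpin 2 (3.00 to 3.22). In each of these 4 genes hairpin 2 lay within a factor of 1.5 of Control while hairpin 1 stood apart.

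Other members are named for their roles, a choice made with their values known. The membrane proteins IFITM1 and IFITM3, which restrict viral fusion, were at 201 and 590 CPM with hairpin 1 and at 89.9 and 275 CPM with hairpin 2. MX2, a dynamin-like restriction factor, was at 1.04, 9.72, 3.36 and 0.379 CPM, so that hairpin 2 was above Control here. Among the factors that drive the programme, IRF7 was at 7.42, 18.7, 6.49 and 2.52 CPM and IRF9 at 19.3, 29.5, 18.01 and 6.37 CPM, both highest with hairpin 1. Some members were nearly equal between the hairpins, with log2 differences of -0.03 for IFIT5, -0.05 for IFIT2 and -0.12 for OAS3.

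**Figure D3:**
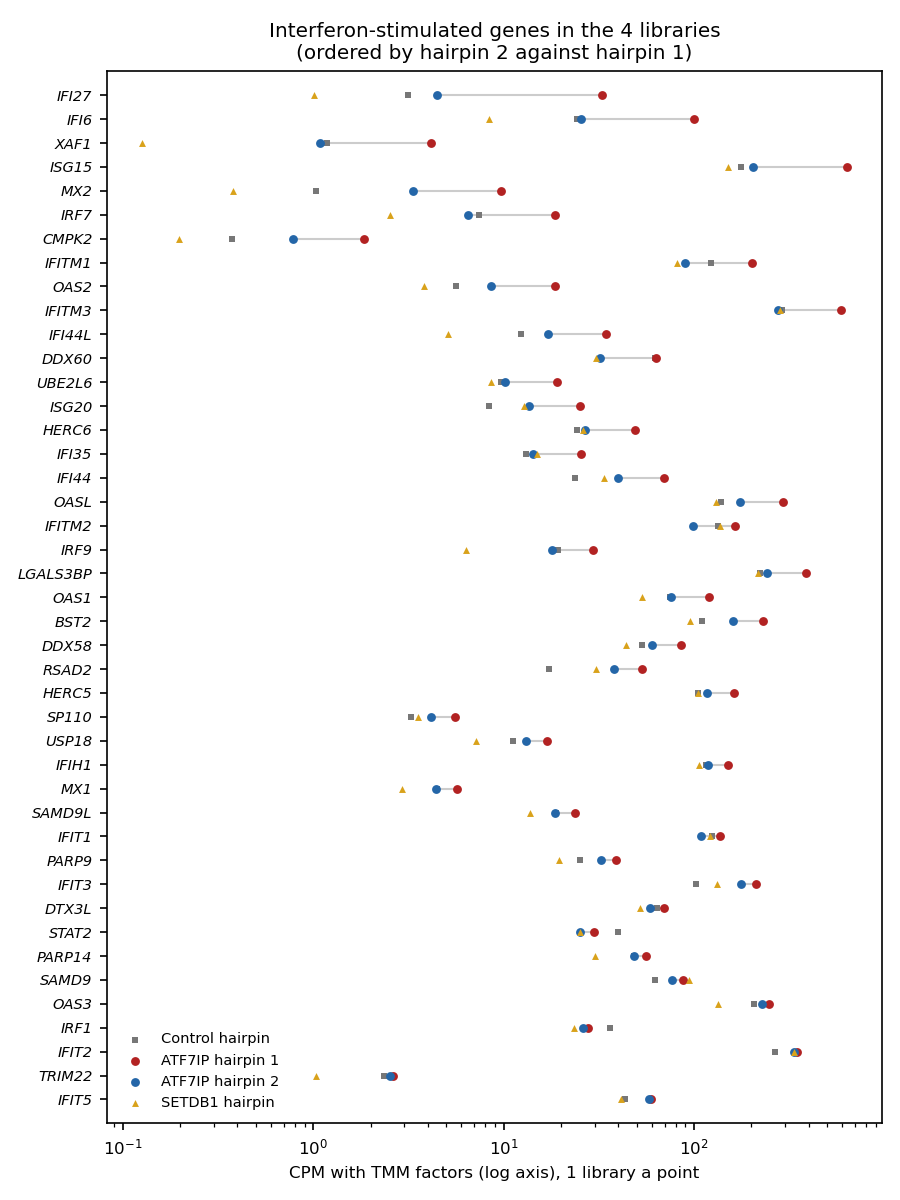
CPM with TMM factors (x axis, log scale) of 43 of the 44 listed interferon-stimulated genes in the 4 libraries, 1 point a library, ordered by the difference between the ATF7IP hairpins. The red hairpin 1 point is right of the blue hairpin 2 point in all 43 plotted, widest for IFI27 (32.9 against 4.47 CPM).

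Genes that present antigen were lower with hairpin 2 in the same way. Of 15 members for class I presentation, which load peptides onto HLA molecules for T cells, 13 were lower, 2 at least 2-fold, with a median of -0.50 and -0.34 after centring. HLA-B was at 191, 392.0, 184 and 170 CPM, 2.13-fold higher with hairpin 1 than hairpin 2 (2.04 to 2.22), and HLA-C was at 294, 562, 303 and 261 CPM. HLA-F, a nonclassical molecule that overlaps an antisense gene, was at 1.80, 4.54, 1.56 and 2.18 CPM. In these 3 HLA genes only hairpin 1 was above the rest. HLA genes are close copies of each other, so the assignment of fragments among them is uncertain. The inducible proteasome subunits PSMB8, PSMB9 and PSMB10 had log2 differences of -0.61, -0.58 and -0.53, against a median of -0.13 over 37 proteasome members, or -0.12 after centring.

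Sensors of foreign nucleic acid were split. Of 13 members, 7 were higher and 6 lower with hairpin 2, with a median of 0.08 that became -0.03 after centring, and 0 were past 2-fold. DDX58, the RIG-I sensor and itself an interferon target, was at 53.4, 85.3, 60.2 and 43.9 CPM. DHX58, its relative, was at 1.97, 3.85, 2.51 and 1.86 CPM. TLR3, the endosomal sensor of double-stranded RNA, was lower with hairpin 1, at 2.23, 1.06, 1.86 and 1.46 CPM, a difference within its counting interval of 0.97 to 3.21. TRIM25, a ubiquitin ligase that acts on RIG-I, was at 280, 218, 328 and 340 CPM. Among secreted mediators, CCL5 was at 78.8, 115, 55.6 and 53.1 CPM, whereas CXCL10 was at 0.920, 1.39, 2.81 and 0.197 CPM and higher with hairpin 2.

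The complexes that ATF7IP belongs to differed little between the hairpins. Of 15 members for SETDB1, TRIM28 and the HUSH silencing complex, 6 were higher and 9 lower, with a median of -0.01, which was 0.06 with library totals and -0.11 after centring, and 0 were past 2-fold. TRIM28, the corepressor that zinc finger proteins recruit, was at 326, 391, 288 and 260 CPM. The HUSH subunits TASOR (119, 109, 146 and 130 CPM) and MPHOSPH8 (21.98, 23.8, 31.6 and 22.5 CPM) were higher with hairpin 2, by 0.43 and 0.41 on the log2 scale. Other writers and erasers of H3K9 methylation had a median of 0.09, with 10 of 13 higher, but after centring 0.03, with 7 of 13 above 0.

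ZNF genes, a family that includes retroelement repressors acting through TRIM28 and SETDB1, tended to be higher with hairpin 2. Of 351 members, 247 were higher, 11 of them at least 2-fold, and 0 were at least 2-fold lower. The median was 0.22, 0.29 with library totals and 0.11 after centring. On chromosome 19, where many of these genes lie in clusters, the 136 ZNF members had a median of 0.31 while the 691 other members had -0.24. ZNF transcripts there had a median GC content of 43.5% against 60.0% for the others, and after centring the medians were 0.15 and -0.03. ZNF573 was at 1.25, 0.553, 1.82 and 1.97 CPM and ZNF852 at 2.96, 1.63, 4.23 and 4.69 CPM, both lowest with hairpin 1. ZNF713, at 1.74, 1.71, 4.26 and 2.53 CPM, was highest with hairpin 2. A list of genes derived from retroelements, most of them not envelope genes, had 4 of 7 members higher and a median of 0.06. Its members were ERVK3-1, ERV3-1, PNMA1, PEG10, RTL10, RTL8A and RTL8C. ERV3-1, which overlaps ZNF117, had the largest difference of the 7 and was at 0.777, 0.638, 2.71 and 2.38 CPM and 4.25-fold higher with hairpin 2 than hairpin 1 (2.24 to 9.23). ZNF117 was at 0.244, 1.49, 3.61 and 1.45 CPM, and reads of this pair cannot be told apart by locus alone.

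Ribosomal protein genes showed small differences in one direction. The proteins of the cytosolic ribosome are encoded by short, abundant transcripts whose translation is set by growth signalling. Of 84 members, 83 were lower with hairpin 2 and 0 were past 2-fold, with a median of -0.56, or -0.49 with library totals and -0.43 after centring. The list took 4.65% of counts in Control, 5.85% with hairpin 1, 4.15% with hairpin 2 and 4.47% in SETDB1 knockdown. Hairpin 1 was the highest library for 80 of the 84 and hairpin 2 the lowest for 64. List medians against Control, not centred, were 0.34 for hairpin 1 and -0.22 for hairpin 2, on opposite sides of Control. The group of shortest transcripts, up to 2115 bases, was at 0.26 and 0.01 over all its members. By the longest transcript of each gene the ribosomal list had a median length of 1864.5 bases, which may exceed that of the expressed transcripts. How much of the hairpin 1 value goes with length was not tested. RPL13A was at 1703, 2248, 1378 and 1729 CPM and RPS2 at 1729, 2310, 1490 and 1832 CPM. RPS29, at 95.7, 125, 66.2 and 77.9 CPM, had the lowest log2 difference of the list, -0.92. Other translation factors with a terminal oligopyrimidine start were lower for 16 of 17 members, median -0.25 and -0.29 after centring, with EEF1D at 280, 434, 255 and 315 CPM.

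Nuclear genes for mitochondria followed with smaller values. Subunits of the respiratory chain were lower in 74 of 80 members, median -0.33 and -0.15 after centring, and mitochondrial ribosomal proteins in 69 of 78, median -0.25 and -0.14 after centring, with 0 past 2-fold in both lists. Unlike the cytosolic ribosome, hairpin 2 was near Control in both, at medians of 0.04 and 0.12 above it, while hairpin 1 was 0.36 and 0.37 above it. ATP5MC2, a subunit of ATP synthase, was at 129, 159, 95.6 and 108 CPM. MRPL12 was at 119, 204, 132 and 123 CPM. Both lists hold short transcripts, of median length 1583 and 1722 bases against 3639 over all members, and the medians against Control were not centred.

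**Figure D4:**
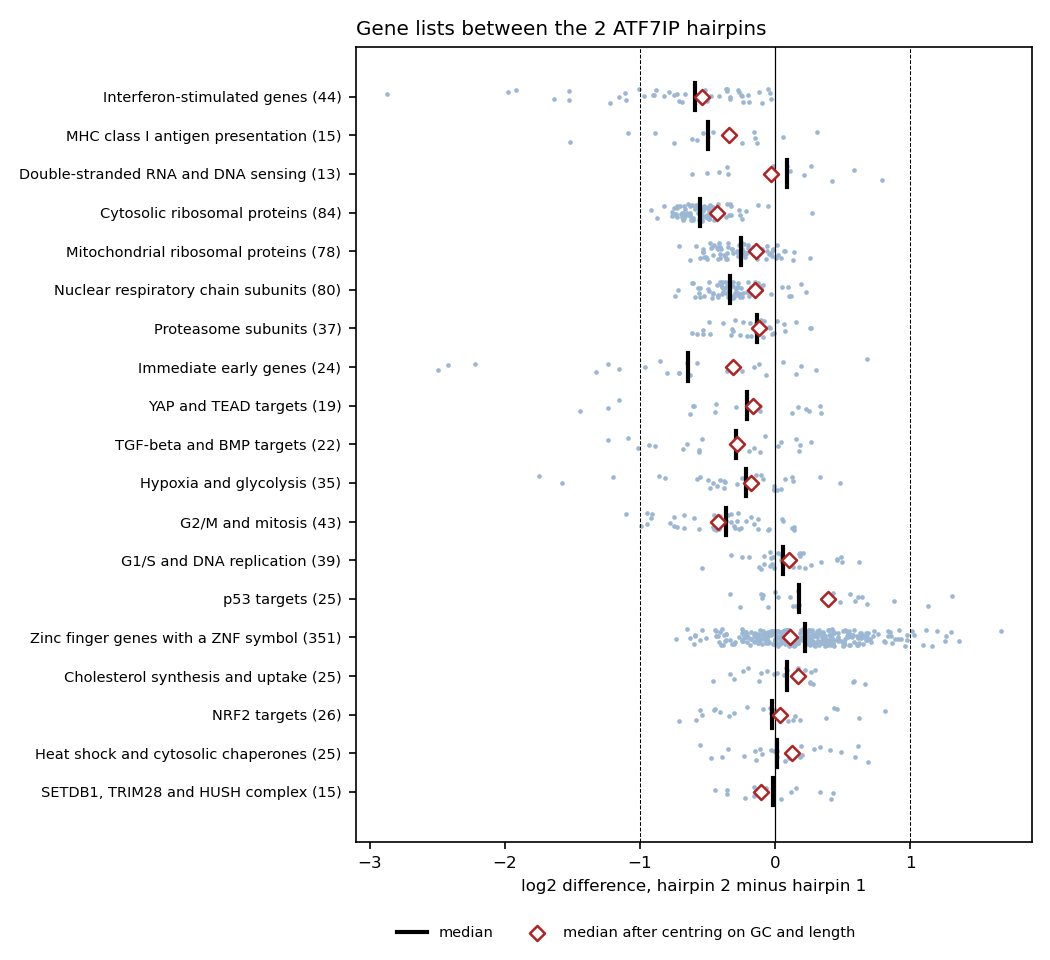
Log2 difference of hairpin 2 minus hairpin 1 (x axis) for each member of 19 gene lists (y axis, number of members in brackets), 1 point a gene; the black bar is the median and the red diamond the median after centring on transcript GC content and length. Interferon-stimulated genes (median -0.59) and G2/M genes (-0.36) keep about the same median after centring, while respiratory chain subunits move from -0.33 to -0.15.

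Immediate early genes, transcribed within minutes of growth factor or stress signals without new protein synthesis, were lower with hairpin 2 in 19 of 24 members, 6 at least 2-fold, with a median of -0.64 and -0.31 after centring. FOS was at 15.4, 101, 21.8 and 18.03 CPM, 4.65-fold higher with hairpin 1 than hairpin 2 (4.18 to 5.19), and EGR1 was at 19.4, 72.8, 13.6 and 15.2 CPM, 5.36-fold (4.70 to 6.16). FOS and EGR1, DNA-binding activators, were high in hairpin 1 alone, but over the list hairpin 1 was the highest library for 7 of 24 members and hairpin 2 the lowest for 16, with list medians of -0.14 and -0.49 against Control. FOSB, at 6.80, 17.0, 3.00 and 12.3 CPM, was also higher in SETDB1 knockdown than in hairpin 2. JUNB was at 101, 176, 70.6 and 68.8 CPM. JUN did not share the pattern, at 64.3, 64.9, 62.1 and 106 CPM, nor did ATF3, at 136, 107, 120 and 145 CPM. BTG2, an antiproliferative gene and also a p53 target, was higher with hairpin 2, at 70.8, 48.9, 78.4 and 75.2 CPM.

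Serum response factor binds the CArG box. A CArG box was found in the promoter window of 2 of 19 immediate early members with one (10.5%), EGR1 and SRF, against 103 of 10430 members (0.988%), 6 of 111 members at least 2-fold lower and 0 of 111 at least 2-fold higher. The EGR1 window is shown because it holds 2 such boxes, in capitals, over the 170 bases before the start at chr5:138465309-138465478 on the plus strand.
EGR1: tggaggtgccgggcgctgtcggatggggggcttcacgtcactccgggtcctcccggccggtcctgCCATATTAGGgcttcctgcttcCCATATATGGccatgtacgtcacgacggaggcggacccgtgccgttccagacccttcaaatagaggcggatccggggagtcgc
FOS, FOSB and JUNB had no CArG box in their windows, which reach only from 250 bases before the start to 50 after it. Sequence further upstream was not searched, so whether these genes have a box there was not tested.

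Targets of YAP and TEAD, the transcription pair that responds to cell spreading and tension, had 13 of 19 members lower, 3 at least 2-fold, median -0.21 and -0.17 after centring. CCN1, a matrix signalling protein, was at 651, 484, 217 and 255 CPM. CCN2 of the same family was at 124, 108, 45.6 and 91.1 CPM, and ANKRD1 at 73.1, 39.5, 14.5 and 65.7 CPM. Over the list, medians against Control were about equal, -0.36 for hairpin 1 and -0.39 for hairpin 2, and hairpin 2 was the lowest library for 8 of 19 members. In the 3 genes CCN1, CCN2 and ANKRD1 hairpin 2 was the lowest library and hairpin 1 nearer to Control. Actin genes lay the same way, with ACTB at 4006, 3432, 2245 and 2264 CPM and ACTG1 at 1930, 1651, 1043 and 1319 CPM. TAGLN, an actin-binding protein of smooth muscle that overlaps other genes, was at 31.0, 14.2, 3.79 and 8.12 CPM. Among TGF-β and BMP targets 16 of 22 were lower, median -0.29 and -0.28 after centring, and ID1, an inhibitor of differentiation factors, was at 116, 213, 105 and 45.05 CPM.

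Genes of mitosis were lower and several p53 targets higher with hairpin 2. Of 43 G2/M members, 38 were lower, 1 at least 2-fold, with a median of -0.36, and after centring the median was -0.42 with 43 of 43 below 0. UBE2C, the ubiquitin carrier of the anaphase-promoting complex, was at 99.6, 137, 63.8 and 97.7 CPM. CCNB1, the mitotic cyclin, was at 127, 175, 87.8 and 80.6 CPM, CDC20 at 234, 286, 148 and 204 CPM, and the mitotic kinase PLK1 at 154, 203, 105 and 117 CPM. Hairpin 1 was the highest library for 31 of the 43 and hairpin 2 the lowest for 29. Genes of G1/S and DNA replication did not follow, with 25 of 39 higher and a median of 0.06, or 0.11 after centring. CLSPN, a replication checkpoint adaptor, was at 112, 106, 163 and 143 CPM, and the helicase subunit MCM4 at 192, 167, 235 and 177 CPM.

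Of 25 p53 targets, 19 were higher with hairpin 2, 2 at least 2-fold, and 0 were at least 2-fold lower, with a median of 0.18 and 0.39 after centring. ZMAT3, an RNA-binding growth suppressor, was at 224, 99.1, 246 and 154 CPM, 2.48-fold higher with hairpin 2 (2.35 to 2.62). RRM2B, the p53-induced subunit of ribonucleotide reductase, was at 87.8, 40.0, 87.6 and 90.2 CPM, and SESN1, a stress-induced regulator of mTORC1, at 53.7, 29.9, 54.9 and 35.1 CPM. For these 3 genes hairpin 2 lay at about the Control level and hairpin 1 was the lowest library. MDM2, the p53 ligase, and CDKN1A, the cell cycle inhibitor, were picked with their values known; MDM2 was at 334, 163, 254 and 224 CPM and CDKN1A at 420, 247, 328 and 346 CPM. Some targets were equal or lower, with BAX at 86.0, 83.6, 83.7 and 71.7 CPM and SESN2 lower with hairpin 2, at 41.2 and 32.8 CPM in hairpins 1 and 2.

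Hypoxia and glycolysis genes were lower with hairpin 2 in 28 of 35 members, 3 at least 2-fold, median -0.21 and -0.18 after centring. CA9, a carbonic anhydrase induced by HIF, was at 0.863, 5.71, 1.68 and 0.942 CPM, high in hairpin 1 alone. ALDOA, the glycolytic aldolase, was at 579, 685, 298 and 605 CPM, low in hairpin 2 alone. ANKRD37 (13.9, 4.49, 1.48 and 4.37 CPM) and NDRG1 (176, 70.6, 39.0 and 94.1 CPM), both HIF targets, were highest in Control and lowest with hairpin 2. The list thus held members that differed from Control in different libraries.

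Stress and lipid programmes had medians between -0.12 and 0.28. Integrated stress response (ATF4) genes were lower with hairpin 2 in 23 of 34 members, 1 at least 2-fold, median -0.12 and -0.09 after centring. NRF2 targets had a median of -0.02, which was 0.05 with library totals and 0.04 after centring, and ferroptosis defence genes -0.11, or -0.12 after centring. PTGS2, a cyclooxygenase used as a ferroptosis readout, was nonetheless at 9.95, 9.23, 21.8 and 11.4 CPM, high in hairpin 2 alone. Cholesterol synthesis genes had 16 of 25 higher and a median of 0.09, and 18 above and 6 below 0 with a median of 0.17 after centring, with MSMO1 at 56.7, 32.1, 48.2 and 36.5 CPM. Fatty acid synthesis genes had 9 of 13 higher and a median of 0.28, or 0.11 after centring, with the elongase ELOVL5 at 229, 171, 245 and 251 CPM. Cytosolic chaperones had a median of 0.01, or 0.13 after centring, while HSPA1A and HSPA1B, near-identical copies of the inducible HSP70, summed to 2459, 1698, 2578 and 5627 CPM. Unfolded protein response genes had a median of -0.04, which was 0.03 with library totals and -0.01 after centring. NF-κB targets had a median of 0.02 with 13 of 24 higher, and 0.21 with 17 of 24 above 0 after centring. CXCL8, a neutrophil chemokine, was at 7.28, 11.6, 28.4 and 26.3 CPM.

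Matrix, adhesion and epithelial genes differed by member. Of 23 collagen chains 15 were lower with hairpin 2, median -0.14 and -0.06 after centring, with the fibrillar chain COL5A1 at 540, 468, 313 and 313 CPM and the basement membrane chain COL4A6 higher, at 2.76, 1.90, 4.75 and 4.62 CPM. Integrin and laminin chains were split, 13 of 25 higher and a median of 0.05, or 0.01 after centring. ITGAV, a receptor chain for vitronectin and fibronectin, was at 211, 135, 259 and 155 CPM, ITGA2, a collagen receptor chain, at 55.6, 25.9, 49.2 and 81.6 CPM, and ITGB8, which helps to activate TGF-β, at 5.97, 5.90, 12.1 and 4.06 CPM. Hairpin 2 was thus above hairpin 1 for these 3 chains. Among protease genes the inhibitor TIMP1 was at 138, 193, 111 and 159 CPM and TIMP3 at 169, 44.4, 27.8 and 175 CPM, the second low in both ATF7IP libraries. KRT80 was at 503, 403, 237 and 284 CPM and KRT81 at 3.96, 8.79, 3.84 and 4.09 CPM.

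Noncoding and chromatin genes gave further differences. Of 26 members listed as long noncoding RNAs 21 were lower with hairpin 2, median -0.31 and -0.21 after centring. H19, an imprinted transcript, was at 624, 709, 361 and 814 CPM, lowest with hairpin 2, and SNHG5, a snoRNA host, at 87.5, 112, 63.6 and 83.4 CPM. MIR17HG, the host of the miR-17 cluster, was higher with hairpin 2, at 6.99, 1.32, 3.69 and 5.43 CPM, and lowest with hairpin 1. Transcripts of the microRNA machinery, the pathway through which hairpins act, had 8 of 13 members higher and a median of 0.07, but 6 above and 6 below 0 and a median of 0 after centring. DICER1 was at 87.0, 74.2, 121 and 126 CPM and AGO3 was at 55.6, 42.1, 65.7 and 56.3 CPM. Replication-dependent histones, whose transcripts mostly lack a poly(A) tail, were lower for 9 of 12 members, median -0.51, and 0 of them had a transcript for centring. Metallothioneins, which bind zinc, the zinc exporter SLC30A1 and the transcription factor MTF1 made a list with 5 members. Of these 3 were lower and 2 higher with hairpin 2, with a median of -0.65, or -0.38 after centring. MT2A was at 109, 117, 74.7 and 125 CPM and MT1E at 32.3, 47.5, 29.5 and 30.0 CPM. SLC30A1 was at 248, 163, 245 and 247 CPM, low in hairpin 1 alone.

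Genes named for the size of their difference, some of them also in lists above, are given next. Higher with hairpin 2, NCR3LG1, the B7-H6 ligand of natural killer cells, was at 63.7, 28.8, 86.1 and 69.4 CPM, 2.99-fold (2.71 to 3.31). POMK, a kinase of dystroglycan glycosylation, was at 10.3, 2.47, 9.04 and 10.99 CPM, and the epithelial factor EHF at 11.6, 3.93, 11.5 and 7.94 CPM. FAM83A, a signalling scaffold that overlaps its antisense gene, was at 14.7, 6.52, 19.7 and 15.3 CPM. In these 4 genes hairpin 1 was the lowest library. TNC, the matrix protein tenascin C, was different, at 13.6, 20.03, 53.3 and 41.03 CPM, high with hairpin 2 and in SETDB1 knockdown. EML5 was at 15.3, 7.51, 21.3 and 19.2 CPM and NBEAL1 at 14.7, 8.62, 22.4 and 19.8 CPM. By amount, TFRC, the transferrin receptor, differed most among genes higher with hairpin 2, at 1894, 1211, 2121 and 2378 CPM, 1.75-fold (1.72 to 1.78), followed by HSPA1A and HSPA1B, CALU (713, 504, 841 and 728 CPM) and SOD2 (390, 333, 540 and 362 CPM).

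Lower with hairpin 2, SLC12A3, the thiazide-sensitive sodium chloride cotransporter, was at 20.8, 23.3, 4.35 and 3.43 CPM, with hairpin 1 near Control and hairpin 2 near SETDB1 knockdown. KLHL4, a kelch-like protein, was at 127, 80.02, 20.03 and 41.7 CPM, 3.99-fold lower with hairpin 2 than hairpin 1 (3.57 to 4.49). DHRS2, a mitochondrial reductase, was at 14.7, 46.5, 11.9 and 56.8 CPM. ALPP, placental alkaline phosphatase, was named from its gene list. ALPP was at 452, 73.9, 20.96 and 197 CPM, low in both hairpins against Control and lowest with hairpin 2. Its copy ALPG was at 16.4, 1.16, 0 and 8.24 CPM. By amount, KRT7, ACTB, ACTG1 and the ribosomal genes RPL13A, RPS2, RPL8, RPLP0 and RPL10 made up the 8 named.

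**Figure D5:**
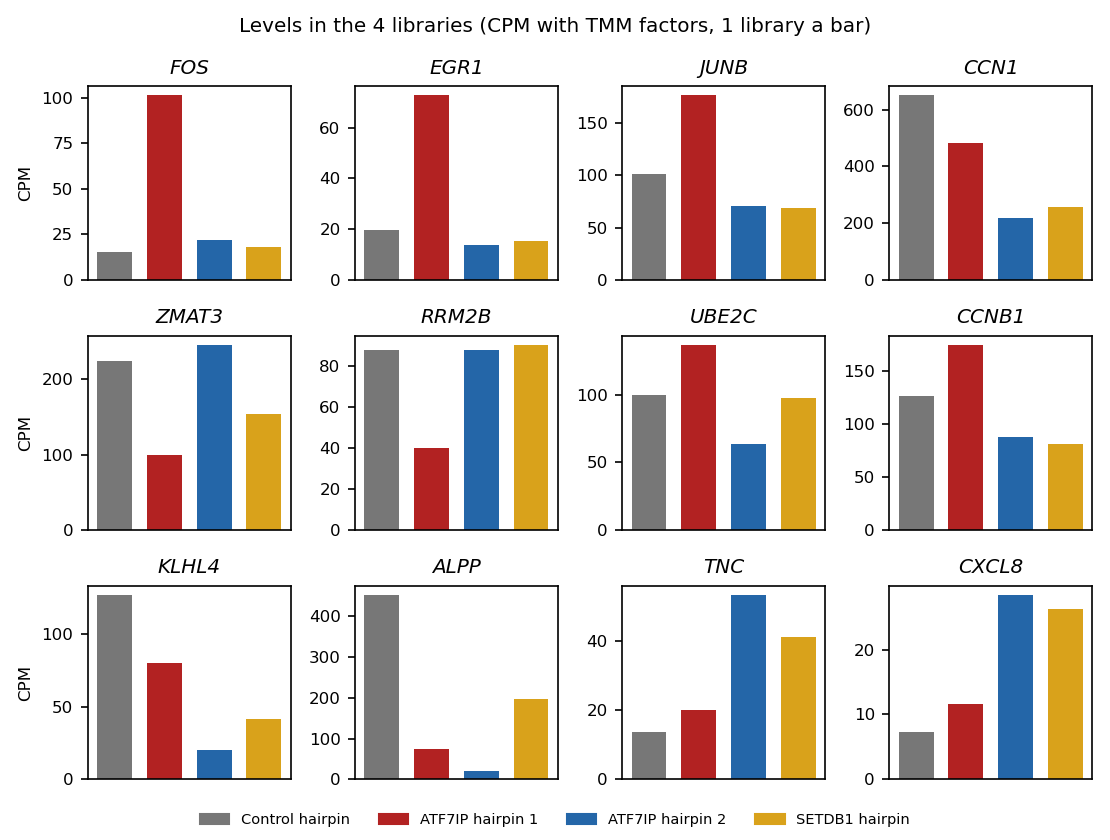
CPM with TMM factors (y axis, from 0) of 12 genes in the 4 libraries, 1 bar a library with no replicate. FOS and EGR1 are high in hairpin 1 alone, ZMAT3 and RRM2B are lowest in hairpin 1, and KLHL4, ALPP and CCN1 are lowest in hairpin 2.

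The most extreme ratios mostly belonged to loci that share sequence or position with another gene. As a ratio the sum over the partners differed far less, though the partners did not always offset the named gene. CA5B was at 0 counts with hairpin 1 and 20.9 CPM with hairpin 2, yet CA5B, its pseudogene and its read-through locus summed to 67.2 and 75.8 CPM. SGK3 was at 0 counts with hairpin 1 and 14.6 CPM with hairpin 2, and with its read-through locus and C8orf44 summed to 14.04 and 17.5 CPM. RGPD6 was at 0.043 and 36.0 CPM, and the 7 RGPD copies summed to 82.4 and 122 CPM. Their sum differed by 0.57 on the log2 scale, so the other copies did not offset RGPD6. TALAM1, antisense to MALAT1, was at 35.03 and 1.55 CPM, while the pair summed to 225 and 253 CPM. H3-3A, for which no overlapping gene was listed, was at 120 and 5.94 CPM, with 7.54 CPM in Control and 8.87 CPM in SETDB1 knockdown. H3-3B, which encodes the same histone H3.3 protein, was also lower with hairpin 2, at 729 and 578 CPM. The pair summed to 849 and 584 CPM, so H3-3B did not offset H3-3A. Other loci with sequence like that of H3-3A were not summed, so a shift of fragments to or from them was not tested. PIGY and its overlapping gene PYURF summed to 90.1 and 95.8 CPM, and NOMO3 with its copies to 648 and 701 CPM. CBS, an enzyme of transsulfuration, was at 45.3 and 13.4 CPM and with its copy CBSL at 100.4 and 56.5 CPM, so the sum was still 0.83 lower on the log2 scale. Of the 169 higher members 87 overlapped another gene, and of the 158 lower members 70, against 38.8% of all members.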

How the data were processed

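Polyadenylated RNA of 4 HepG2-labelled libraries was measured, 1 per group. The authors deposited estimated counts (expected counts) per gene symbol, whole numbers without normalization between libraries. HISAT2 2.2.1, StringTie 2.2.1, DESeq2 1.34.0 and hg38 are named in the submitters' processing notes, without role or order; the annotation and the strand setting are not given in the sources used here. Low values piled up at 4 and 8, so 4 counts per fragment were assumed. Totals were 71225287 and 73791097 counts for hairpins 1 and 2.

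TMM factors came from edgeR 4.0.16 over all 4 libraries (16900 genes, minimum count 10), and log2 CPM used a prior count of 2. Members had a mean of at least 1 CPM by library total. Intervals are 95% exact binomial intervals of the ratio on fragments, and the floor is 3 fragments (12 counts); both cover counting error only. Gene positions came from RefSeq (GRCh38.p14). Centring subtracted the median of members in the same of 10 by 10 groups of transcript GC content and length. Both features came from the longest GENCODE transcript under each gene name. 0 columns belonged to no sample.

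The members and the 55 gene lists were chosen with earlier results of these data known. Named genes were ATF7IP, SETDB1, CYB5R2, PARK7, the 12 highest and 12 lowest log2 differences at a mean of at least 5 CPM without read-through, structural, pseudogene and LOC entries, the 8 highest and 8 lowest CPM differences past 1.5-fold, and up to 4 genes per list by size of difference. ATF3, BAX, CDKN1A, IFIT2, IFIT5, IFITM1, IFITM3, IRF7, IRF9, JUN, MDM2, MX2, OAS3 and SESN2, and the promoters shown, were chosen after values were seen. Some list members are not reported here by name. Alternatives were library totals, DESeq2 (1.42.0) size factors, TMM over the hairpin pair, prior counts of 0.5 and 8, other level filters, leaving out read-through loci and structural RNAs, and centring.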

Additional observations from a re-analysis of the deposited data

How the results depend on the processing

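The numbers of members at least 2-fold higher and lower with hairpin 2, 169 and 158, stayed within 1.5-fold under library totals (214 and 126), DESeq2 size factors (175 and 153), TMM over the hairpin pair (176 and 153), prior counts of 0.5 (173 and 162) and 8 (148 and 147), and without read-through loci and structural RNAs (149 and 139). With no filter on low values they were 1569 and 1456, and with a mean of at least 5 CPM they were 60 and 85, as more or fewer genes were counted. Centring on transcript GC content and length gave 138 and 85 over the 12645 members with a transcript, which had 148 and 131 before it; 113 and 75 were past 2-fold both ways. Library totals moved every log2 difference by about 0.07 and changed the sign of 6 of 50 list medians, those within 0.07 below 0 (SETDB1 and HUSH, NRF2, unfolded protein response, liver metabolism, liver transcription factors and BCL2 family). Centring moved 111 of 216 named genes beyond their counting intervals and 4 of 49 list medians beyond the interval over members, and it changed the sign of 3 named genes, ATF7IP (-0.26), TFR2 and RTL8C, and of 5 of 49 list medians. No paired analysis was possible because each group has 1 library, and for the same reason no library could be left out. Counting error limits members near 1 CPM.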
